A study of Mus musculus with 2 samples.

Results

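The inner root sheath is the tube of keratinocytes that moulds the growing hair shaft, and the cuticles are the single cell layers that lie at its inner face and on the shaft itself. Cells of these layers leave the dividing matrix of the hair bulb, switch on their own keratins, and later harden through trichohyalin and the enzymes that modify and cross-link it, the peptidylarginine deiminases and transglutaminases. Krt73 and Krt72 are type II keratins known from the inner root sheath cuticle, whereas Krt71, Krt25, Krt27 and Krt28 are keratins of the inner root sheath at large, so cells early in this course carry the first signs of the lineage without the full keratin load. The cells described here were chosen to stand at that early place, and they were compared between control skin and the skin of mice given testosterone propionate (TP).

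Cells of the early inner root sheath and cuticle were selected on their own transcripts. A barcode was a member when at least 3 of 8 genes (Krt73, Cdh6, Prr9, Fbp1, Crym, Lypd6, St8sia1 and Sema6a) had a unique molecular identifier (UMI, 1 captured transcript), when Krt71, Krt25, Krt27 and Krt28 summed to less than 150 per 10000 UMIs, when Shh had no UMI, and when the shaft keratins Krt31, Krt33a, Krt33b, Krt34, Krt81 and Krt86 summed to less than 50 per 10000 UMIs. Of 62289 cells kept, 8637 were members, 7013 of 42244 in control (Con) and 1624 of 20045 in TP. Con and TP were each 1 library from dorsal skin pooled from 15 male C3H/HeN mice, 7 weeks old when the experiment began and 9 weeks old at collection. Con mice received the vehicle and no TP, and TP mice received 0.5 mg of testosterone propionate per day under the skin, the treatment that makes the androgenetic alopecia (AGA) model. The paper states that dorsal skin was shaved before the injections, and the number of mice it gives there covers all groups. The labels name no genetic change in these mice, and the group that also received an antibody is not analysed here. Pooling leaves 1 value per condition, so differences between the conditions, between pools of mice and between libraries cannot be told apart, and no test was possible.

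Both libraries differed in depth, which bears on every share given below. Kept cells had a median of 2162 UMIs in Con and 5166 in TP, and members had medians of 2810 and 9405 UMIs, with 1714 and 3534 genes. The limit on mitochondrial transcripts removed 3465 Con and 5871 TP barcodes. Barcodes called as doublets, with a profile like 2 merged cells, made up 7.66% of Con members and 18.8% of TP members. The setting called 7.5% of all kept cells in each library. The libraries shared 220 barcode sequences, of which 34 marked Con members and 14 marked TP members. Intervals below are exact at 95%. They describe counting error alone and say nothing of the spread between animals or preparations.

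Members made up 16.6% of kept Con cells (16.25 to 16.96) and 8.10% of kept TP cells (7.73 to 8.49), so that the share in TP was 0.488 times that in Con (0.462 to 0.515). This order depends on what is counted. Thinning every cell to 2000 UMIs, which left out 44.8% of Con and 15.0% of TP cells as too shallow, gave 13.8% and 4.57%, a ratio of 0.330 (0.305 to 0.357). Members with 5 or more of the 8 genes, by contrast, were 3.05% of kept Con cells (1288 cells) and 3.10% of kept TP cells (621 cells), a ratio of 1.016 (0.922 to 1.119). Thinned to 2000 UMIs, that stricter class gave 2.12% and 1.40%, a ratio of 0.661 (0.564 to 0.773). Called doublets made up 6.77% of Con and 21.3% of TP members with 5 genes, and 6.73% and 30.15% of those with 6 to 8. The part of these doublets in the ratio of the stricter class was not tested. The stricter class was set after the data had been seen.

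The gate of 3 of 8 genes let in 8228 Con and 1899 TP cells before the 3 exclusions. Cells set aside for high inner root sheath keratins numbered 350 in Con and 106 in TP, those with Shh, the signal made by part of the hair matrix, 861 and 168, and those with high shaft keratins 4 and 1. Members were 1.003 times as large a share of gated cells in TP as in Con (0.950 to 1.059), with relatively more TP cells set aside for keratins and more Con cells for Shh. Just inside the keratin limit, at 140 to 150 per 10000, lay 61 Con and 16 TP members, and just outside, at 150 to 160, lay 44 and 15 cells. Gated cells with exactly 1 Shh UMI numbered 623 in Con and 88 in TP, and the highest shaft keratin level of any member was 41.9 per 10000 in Con and 32.2 in TP. Few barcodes therefore lay near the keratin limits, and many of the gated cells with Shh held only 1 UMI of it.

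The 8 genes did not carry equal weight in the choice. A Cdh6 UMI, from a gene for a cadherin that joins neighbouring cells, was present in 94.0% of Con and 79.1% of TP members, and a Krt73 UMI in 85.6% and 87.0%. Sema6a, a membrane semaphorin, had a UMI in 70.4% of Con and 70.3% of TP members. Prr9, a small proline-rich protein gene, was found in 35.1% of Con and 66.9% of TP members, Fbp1, the gluconeogenic enzyme fructose-1,6-bisphosphatase, in 19.4% and 46.5%, and Crym, which binds thyroid hormone, in 27.4% and 45.3%. Lypd6 and St8sia1, a ganglioside sialyltransferase, were seen in 27.6% and 10.8% of Con and in 19.2% and 6.77% of TP members. At these unequal depths, Con members entered mainly on Krt73, Cdh6 and Sema6a, and TP members more often on Prr9, Fbp1 and Crym as well. With all cells thinned to 2000 UMIs, the last 3 genes differed less inside the marker clusters defined below. Prr9 was found in 25.7% of Con and 29.3% of TP cells there, Fbp1 in 14.9% and 16.8%, and Crym in 21.2% and 14.9%. Outside those clusters all 3 were found in fewer TP than Con cells. Exactly 3 of the 8 genes were present in 56.1% of Con and 41.6% of TP members, and 5 or more in 18.4% and 38.2%.

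In mm10 (GRCm38), Krt73 lies on chromosome 15 at 101793304 to 101802360, next to Krt72 at 101776172 to 101786520, inside the type II keratin cluster. Cdh6 lies on the same chromosome at 13028699 to 13176407, and Prr9 on chromosome 3 at 92122204 to 92123947. Krt72 was not used by the selection and served as a check of the name. Only 2.1% of Con and 7.02% of TP members had a Krt72 UMI, so the check rests on summed levels and not on single members. The level of Krt72 was higher with each further rule gene up to 6, going from 2.39 UMIs per 1000000 (CPM) in Con cells with 3 genes to 7.33 with 4, 22.9 with 5 and 55.3 with 6. TP cells with 3, 4, 5 and 6 genes held 0.701, 3.24, 36.9 and 56.4 CPM of Krt72. It was not higher beyond that, at 44.5 and 45.4 CPM in Con and TP cells with 7 genes, and at 35.3 (12.9 to 76.8) and 4.11 CPM (0.104 to 22.9) in the 10 Con and 7 TP cells with all 8. Cells with only 2 rule genes, which the selection left out, held 1.92 CPM in Con and 0.639 in TP, close to the values of members with 3 genes. By this keratin, members with 3 genes resembled cells just outside the selection. Members with 4 genes already lay above those cells (5.48 to 9.61 against 1.42 to 2.55 CPM in Con, 1.67 to 5.66 against 0.349 to 1.07 in TP), and members with 5 to 7 genes lay higher again.

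**Figure D1:**
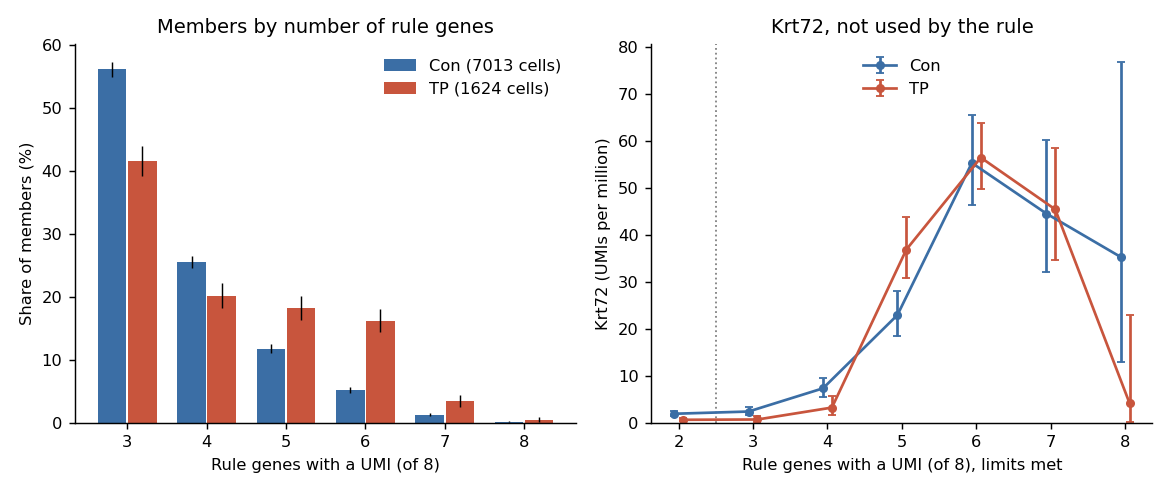
Left, share of members (%) with each number of the 8 rule genes, Con in blue and TP in red. Right, Krt72 in CPM by number of rule genes, cells with 2 genes (left of the dotted line) being non-members. Bars and whiskers give exact 95% intervals for counting error. Members with exactly 3 genes were 56.1% in Con and 41.6% in TP, and Krt72 reached 55.3 and 56.4 at 6 genes and was not higher at 7 or 8.

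To see where members lay among all skin cells, each library was clustered on its own without any gene of the selection. Clusters in which at least 3 of the markers Krt73, Cdh6, Prr9, Crym and Fbp1 were at least 2-fold above the other kept cells were called marker clusters, a definition made after the clusters had been seen. Con had 3 such clusters and TP had 4, and they held 12.8% and 12.6% of kept cells. Only 2667 of the 7013 Con members lay in them (38.03%), against 990 of the 1624 TP members (61.0%). At an equal depth of 2000 UMIs, 49.0% of Con and 29.9% of TP cells inside marker clusters met the selection, whereas 8.84% of Con and 0.597% of TP cells outside did. Since these 5 markers belong to the selection, a higher share inside follows from the definition and bears nothing on the label. The member share in TP was thus 0.609 times that in Con inside marker clusters (0.556 to 0.668) and 0.0676 times outside (0.0539 to 0.0837). Marker clusters were defined within each library, so inside and outside need not hold the same kinds of cells in Con and TP. By the correlation given below, TP marker clusters 13, 16 and 18 were closest to Con clusters 3, 9 and 0, all outside the Con marker clusters.

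Con members outside marker clusters included cells of other types. In a Con cluster led by T cell genes such as Themis, Cd3d and Nkg7, 8.97% of cells met the selection at 2000 UMIs, with Krt73 at 190 and Cdh6 at 596 CPM, and 60.0% of its barcodes were called doublets. In a Con cluster led by fibroblast and endothelial genes such as Lum, C7 and Cdh5, 9.19% did, with Krt73 at 202 and Cdh6 at 449 CPM. In TP the share was 0.546% in a cluster led by macrophage genes such as Cd163 and Mrc1, 0.942% in a fibroblast cluster led by C7, 1.82% (0.0460 to 9.72) in a small T cell cluster with Themis and Cd3e, and 3.48% (0.956 to 8.67) in an endothelial cluster with Cdh5 and Emcn. Krt73 stood at 45.1 and 157 CPM and Cdh6 at 29.9 and 51.3 CPM in the macrophage and endothelial clusters. Median depths were 1623 and 1372 UMIs in the Con T cell and stromal clusters, and 4074, 7130, 2212 and 2079 UMIs in the TP macrophage, fibroblast, T cell and endothelial ones. Some rule genes were higher here than in any marker cluster of the same library. St8sia1 stood at 152 CPM in the Con T cell cluster and 237.5 in the TP one, and Sema6a at 570 in the TP endothelial one. The member shares of these clusters were taken as a reference level for their library. The part of expression and of free RNA in that level was not tested. In Con the intervals were 4.99 to 14.6% for the T cell cluster and 5.44 to 14.3% for the stromal one. Con clusters 6 and 7, highest in suprabasal and basal epidermal markers, stood lower, at 1.80% and 0.883%. Other Con clusters outside the marker clusters ran from 0.883% to 20.5%. Clusters 0, 9, 14 and 17, with 19.3 to 20.5%, lay above the immune and stromal level beyond counting error. They did not reach the Con marker clusters, while TP marker clusters 13 and 18 stood at 19.65% and 18%. Doublets made up 54.24% of cluster 17 and 19.2% of cluster 9, against 0.7449% and 1.38% of clusters 0 and 14. A Con melanocyte cluster with Sox10 and Tyr stood at 16.07% (11.97 to 20.91), with 75.33% doublets. Its interval overlapped those of clusters 0, 9, 14 and 17. The part of merged cells in these shares was not tested. No TP cluster outside the marker clusters exceeded the endothelial 3.48%. In all, 62.0% of Con and 39.0% of TP members lay outside marker clusters.

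**Figure D2:**
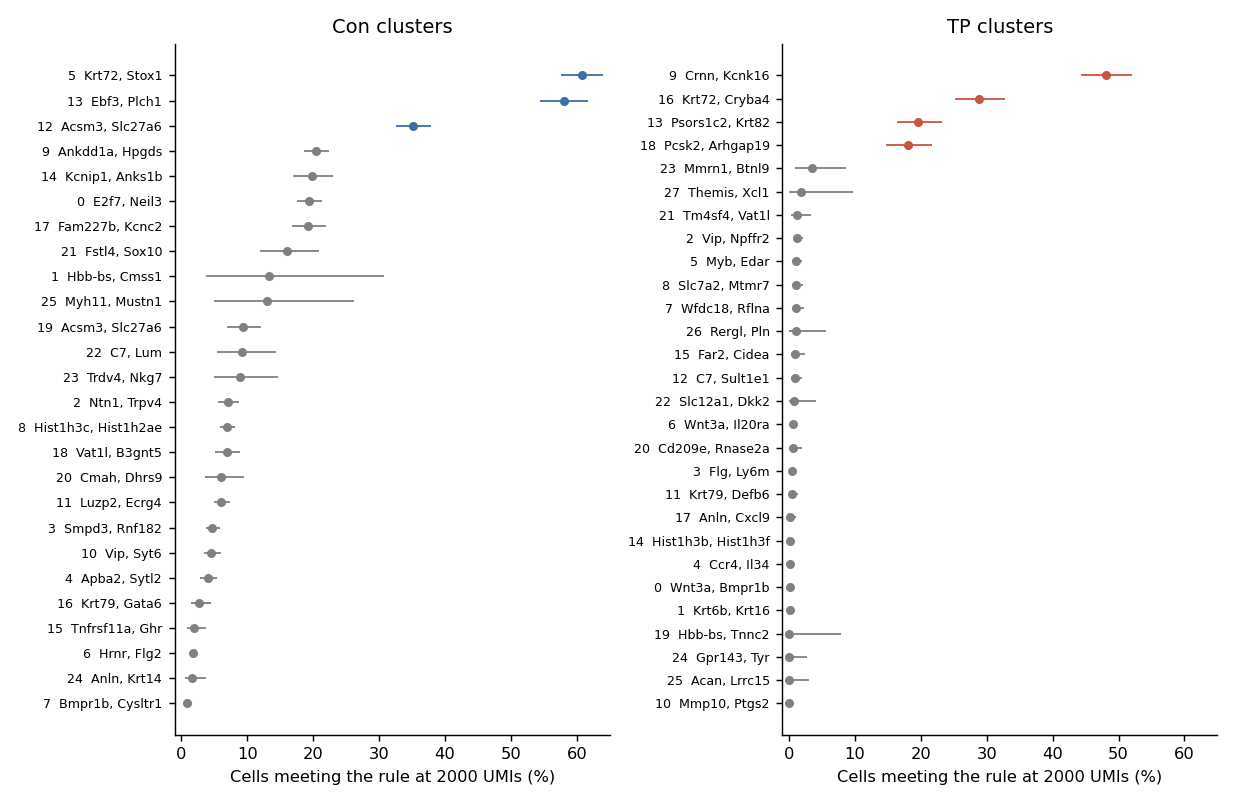
Share of cells (%) that met the selection after thinning to 2000 UMIs, for each cluster of Con (left) and TP (right) with at least 20 cells that deep, named by number and 2 leading genes. Coloured points are marker clusters, grey points are others, and whiskers are exact 95% intervals. Marker clusters ranged from 35.2 to 60.8% in Con and from 18 to 48.1% in TP.

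Marker clusters differed from each other in genes that the selection did not use. Con cluster 5, with 1184 members, was led by Krt72, Stox1 and Tafa2. TP cluster 9, with 397 members, was led by Crnn, Kcnk16, Ggt1 and Tchh, and also had Slc9a2, Sytl2, Krt72 and Aox4 among its leading genes. Krt72 and Slc9a2 were leading genes of Con cluster 5 too, Tchh of Con cluster 13, and Crnn, Ggt1, Sytl2 and Aox4 of Con cluster 4, which held 133 members and was no marker cluster. Krt72 stood at 68.8 CPM in members of Con cluster 5 and at 80.7 in those of TP cluster 9, the highest levels in each library. Con cluster 12 (612 members) and TP cluster 13 (150 members) shared Acsm3 and Hes2 among their leading genes. Con cluster 19, with 96 members and not a marker cluster, shared Acsm3, Krt82, Vsig8 and Hes2 with TP cluster 13, so hair cuticle genes in Con were split over clusters 12 and 19 at least. Con cluster 3, with 219 members and no marker cluster either, shared Gprc5d with TP cluster 13, and the 2 were not compared. S100a3, a calcium-binding protein of the hair cuticle, was at 861 CPM in members of Con cluster 12, 2618 in those of Con cluster 19 and 3803 in those of TP cluster 13, against 124 and 149 CPM in Con cluster 5 and TP cluster 9. Hoxc13, a homeobox factor that drives hair keratin genes, was at 218 and 410 CPM in Con cluster 12 and TP cluster 13. In Con cluster 5 and TP cluster 9 it was at 25.4 and 13.7 CPM. Krt35, a type I hair keratin, was at 830 and 1399 CPM in the former and 195 and 57.6 CPM in the latter.

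Con cluster 13, with 871 members, stood apart through trichohyalin and its deiminase. Tchh reached 9332 CPM in its members, against 1100 in those of Con cluster 5 and 1125 in those of Con cluster 12. Padi1, a peptidylarginine deiminase, was at 27.4 CPM against 2.43 and 4.68, and Cdh6 was at 6503 CPM against 3600 and 2050. No TP marker cluster had Tchh that high, the largest value being 2492 CPM in TP cluster 9. Krt72 was low in Con cluster 13, at 2.37 CPM. The selection thus joined a Krt72-led, a hair cuticle-like and a Tchh-high set of cells in Con.

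The other 2 TP marker clusters were of doubtful make-up or cycling. TP cluster 16, with 306 members, was led by Krt72, Cryba4 and Bmp8a and had 63.5% of its barcodes called as doublets. Its members carried 16513 CPM of Krt10, the keratin of the suprabasal epidermis, against 1489 in TP cluster 9 and 1532 in TP cluster 13. TP cluster 18, with 137 members, was led by mitotic genes and held 8118 CPM over the G2/M list, against 627 and 711 CPM in TP clusters 9 and 13. Mki67 stood at 1093 CPM in its members. Con had no separate cycling marker cluster, and its cluster 12 held 2830 CPM over the same list. By Krt72 the label of an inner root sheath cuticle was clearest in members of Con cluster 5 and TP cluster 9, while Con cluster 13 stood near the level of cells with 2 rule genes, and TP clusters 16 and 18 carried epidermal or mitotic genes as well.

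**Figure D3:**
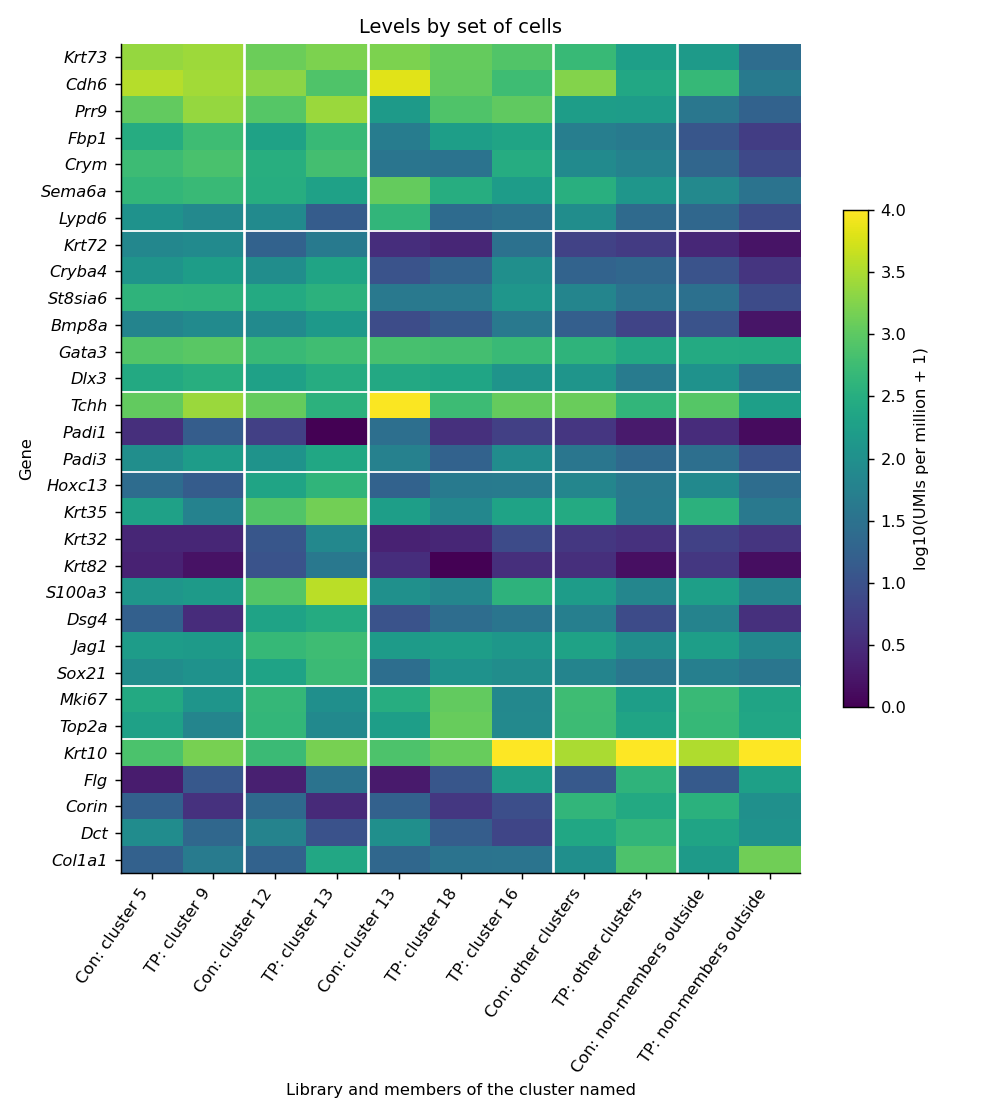
Levels of named genes as log10 of CPM plus 1, by library and cluster, for members in marker clusters, members in other clusters, and non-members outside marker clusters. The colour scale ends at 4, which Krt10 passes in 3 of the TP sets. Krt72 peaks in Con cluster 5 (68.8) and TP cluster 9 (80.7), and among marker clusters S100a3 peaks in Con cluster 12 (861) and TP cluster 13 (3803).

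Against all other kept cells of the same library, 103 of 14320 genes were at least 2-fold higher in members of both libraries (0.719% of genes tested). Krt72 led them, at 12.8 CPM in Con members against 2.20 in other cells and at 21.1 against 0.988 in TP, which is 5.81-fold and 21.2-fold. Cryba4, a crystallin gene, was 3.47-fold and 18.6-fold higher, and St8sia6, a second sialyltransferase, 3.60-fold and 11.5-fold. Bmp8a, a ligand of the bone morphogenetic protein family, was 2.64-fold and 10.97-fold higher. Others among the 15 highest were Cemip, Spns2, Dclk2, Srms, Frmd5, Lnx1, Slc9a2, Dusp2 and Sybu, with 2.64- to 4.32-fold in Con and 3.69- to 11.7-fold in TP. Cemip degrades hyaluronan, Spns2 exports sphingosine-1-phosphate, and Slc9a2 exchanges sodium for protons. In each of the 15 genes the fold was larger in TP, where levels in other cells were lower for most of them. The selection drew on these same cells, so this list describes them and is no test.

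Between the conditions, 930 of the 14320 genes reached a 2-fold rise in TP members (6.49%) and 1268 reached a 2-fold fall (8.85%). The median log2 ratio of TP over Con was -0.26 in members and -0.25 in other kept cells, so the typical gene read lower in TP on this scale. With TMM scaling, which removes that shift through a factor of 0.830, the counts were 1372 higher and 625 lower, so that higher genes went from 42.3% to 68.7% of those that passed. Of the 930 genes that rose, 673 (72.4%) were also at least 2-fold higher in all other kept cells, and of the 1268 that fell, 820 (64.7%) were also lower there. In members of marker clusters without doublets, 5.86% of genes rose and 4.45% fell, and these overlaps were smaller, 376 of 651 rises and 225 of 495 falls.

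Among the 12 largest rises were keratins and cornified envelope genes of the epidermis. Krt6b, a keratin of the companion layer and of stressed epidermis, rose from 0.249 to 21.1 CPM (84.8-fold, 40.8 to 212), and Krt16, its usual partner, from 4.62 to 124.9 CPM (27.1-fold, 22.7 to 32.5). Flg, the filaggrin of the granular layer, rose from 8.74 to 247 CPM (28.3-fold), Lor, loricrin, from 11.5 to 156 CPM (13.5-fold), and Sprr1b from 3.45 to 62.1 CPM (18-fold). Klk6, Crct1, Cnfn, Wfdc18, Slc34a2, Fosl1 and C7 completed the 12, with 13.4- to 76.2-fold. Of these, C7 was a leading gene of the fibroblast clusters in both libraries, Wfdc18 of the TP cluster highest in bulge markers, and Fosl1 is an AP-1 factor. In other kept cells Krt6b rose by 5.71, Krt16 by 4.18 and Flg by 3.91 on the log2 scale, so these rises were not particular to members. In members all 8 suprabasal epidermal genes tested rose, and their summed level went from 6409 to 28180 CPM. Krt10 stood at 10569 CPM in TP members outside marker clusters and at 16513 in those of TP cluster 16, and the part of merged cells in these rises was not tested.

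The 12 largest falls were Bves, Fgf5, Tmem132cos, Map3k15, Cnr1, Krtap15, Cd3e, Cd3g, Cfap299, Runx2os1, Grm7 and Armh1, at 0.129 to 0.197 times the Con level. Fgf5, the growth factor whose loss lengthens the hair growth phase, fell from 9.24 to 1.24 CPM (0.134-fold, 0.0867 to 0.200). Krtap15, a keratin-associated protein gene of the hair shaft, fell from 9.20 to 1.47 CPM (0.160-fold). Cd3e and Cd3g, chains of the T cell receptor complex, went from 3.84 to 0.596 and from 4.34 to 0.780 CPM, and Cnr1, a cannabinoid receptor, from 4.62 to 0.688 CPM. All 12 were at least 2-fold lower in other kept cells too. Cd3e and Cd3g mark T cells and not keratinocytes, and their levels in Con members lay below the 6.65 and 7.11 CPM of Cd3e and Cd3g in other Con cells.

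**Figure D4:**
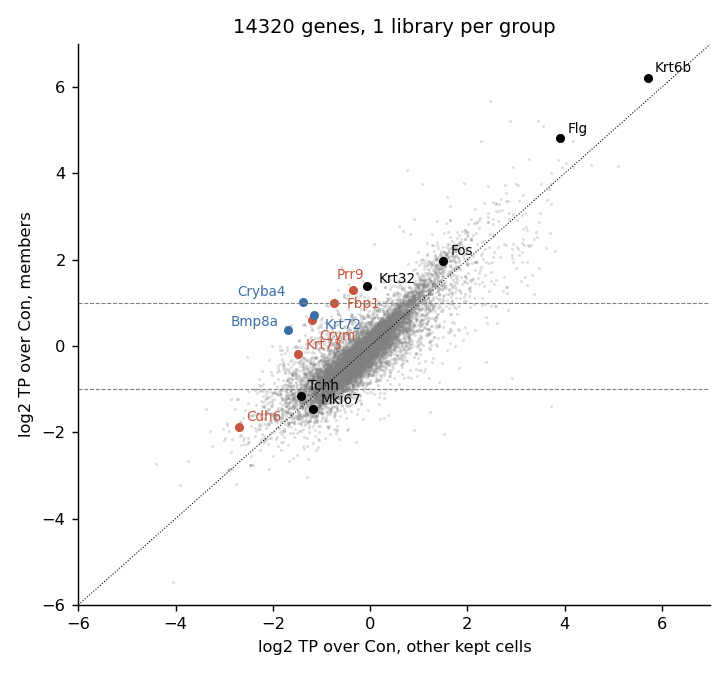
Log2 ratio of TP over Con in members (vertical) against the same ratio in all other kept cells (horizontal), 1 grey point per gene. Rule genes are red, genes highest in members are blue, other named genes are black, the dotted line marks equal ratios and dashed lines mark 2-fold. Krt6b and Flg lie near the dotted line, and Krt72 and Cryba4 lie above it.

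Rule genes, whose levels in members are set in part by the choice of cells, are given as a description. Krt73 stood at 860 CPM in Con and 754 in TP members, Sema6a at 398 and 184, and Cdh6 at 2364 and 645. Prr9 stood at 344 and 849 CPM, Fbp1 at 92.7 and 185, and Crym at 153 and 234. Lypd6 stood at 118 and 29.0 CPM and St8sia1 at 34.9 and 8.53. Among the inner root sheath keratins limited by the selection, Krt25 was at 1733 and 986 CPM, Krt71 at 1079 and 507, Krt28 at 673 and 636, and Krt27 at 224 and 260. Prr9, Fbp1 and Crym thus read higher and the other 5 lower in TP members.

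Other inner root sheath genes moved in both directions. Of the 18 tested, 5 rose, 3 fell and 10 did neither (6.49% and 8.85% of all genes rose and fell), with a median log2 ratio of 0.39 against 0.01 for the same genes in other cells. Krt72 itself was 1.65-fold of the Con level (1.43 to 1.90), with a log2 ratio of -1.15 in other cells. It was lower in TP among members with 3 and 4 rule genes, higher among those with 5 (30.8 to 43.8 against 18.6 to 28 CPM in Con) and close to Con among those with 6, and TP had more members with 5 or more genes (38.2% against 18.4%). Padi3, the deiminase that acts on trichohyalin, was 1.37-fold, while Padi4 fell from 17.8 to 5.50 CPM and Tchh from 1791 to 807 CPM (0.451-fold, 0.443 to 0.459). The risers Sprr1a, Klk7, Cst6, Tgm1 and Tgm5 are genes of epidermal cornification as well, and all 5 also rose in other cells, by 1.06 to 3.18 on the log2 scale.

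Hair cuticle genes showed 3 rises and 2 falls among 9 tested, where 6.49% of all genes rose and 8.85% fell, with a median of -0.60 against -1.39 in other cells. S100a3 rose from 232 to 504 CPM (2.17-fold, 2.10 to 2.23), Krt32, a type I keratin of the hair cuticle, from 3.94 to 10.3 CPM (2.62-fold, 2.08 to 3.32), and Lgals3 from 558 to 1600 CPM. Krt39 and Selenbp1 fell, to 0.292 and 0.274 times Con. Krt82, the type II partner keratin of the cuticle, was at 3.20 and 4.45 CPM and Dsg4, the desmoglein of the hair shaft, at 62.6 and 41.0. In other cells 1 of the 9 genes was at least 2-fold higher and 6 were at least 2-fold lower, while S100a3 and Krt32 had log2 ratios of -0.50 and -0.06.

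Transcription factors of the lineage moved in both directions. Of 36 tested, 4 rose, 4 fell and 28 did neither, where 6.49% of all genes rose and 8.85% fell, so nothing particular to these factors is read from the counts. Gata3, which directs the inner root sheath fate, was at 482 and 440 CPM (0.914-fold, 0.890 to 0.938). Hoxc13 was at 77.0 and 73.2 CPM, Dlx3 at 154 and 122, Foxn1 at 66.1 and 37.0, and Lef1, the nuclear partner of β-catenin, at 803 and 414. Cux1, whose loss disturbs the inner root sheath, fell from 1979 to 982 CPM (0.496-fold), Runx1 from 216 to 95.7, Dlx1 from 17.6 to 5.41 and Dlx4 from 13.8 to 5.64. Sox9, Klf4, Ehf and Id1 rose, by 3.97-, 3.21-, 4.36- and 2.56-fold. Runx1 was the only faller whose log2 ratio in other cells was above -1, at -0.66.

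Proliferation genes were lower in TP members. In the G2/M list 19 of 32 genes fell and none rose, where 8.85% of all genes fell, and the summed level went from 3031 to 1430 CPM. In the S phase list 10 of 32 fell and none rose, from 1450 to 859 CPM. Other kept cells were lower in TP too, with sums of 3090 and 1716 CPM over the G2/M list and 1690 and 1143 over the S phase list. Mki67 fell from 509 to 184 CPM (0.361-fold, 0.348 to 0.374) and Clspn, a replication checkpoint gene, from 63.5 to 20.3 CPM. Of the 11 matrix genes tested 5 fell, among them Edar, the ectodysplasin receptor, at 0.338-fold. In other kept cells 6 of these 11 fell, with a median log2 ratio of -1.01 against -0.96 in members. Within marker clusters and without doublets the G2/M list had no gene past 2-fold, with summed levels of 1987 CPM in Con and 1764 in TP. In the same cells S phase genes still fell in 4 of 32, with sums of 1099 and 760 CPM. Matrix genes fell there in 3 of 11, where 4.45% of all genes tested fell. That set holds the cycling TP cluster 18 but not Con cluster 0, which was led by cell cycle genes and was no marker cluster. It therefore cannot show whether the G2/M falls hold among like cells. In members of other clusters the G2/M sums were 3459 CPM in Con and 1447 in TP.

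Signalling lists had few genes past 2-fold, in shares read against the 6.49% of all genes that rose and the 8.85% that fell. In the Wnt list 2 of 27 genes fell, Sfrp1 to 0.414-fold and Axin2, a feedback target of the pathway, to 0.488-fold, and none rose. In the list of bone morphogenetic protein signalling 2 of 19 rose, Id1 and Grem1, the latter from 0.355 to 2.61 CPM. In the Notch list 1 of 18 fell (Notch4, at 0.368-fold). These 3 lists lay near the shares over all genes. Among growth factors and receptors 4 of 26 rose and 3 fell. Ereg, an epidermal growth factor receptor ligand, rose from 1.92 to 25.8 CPM, Igfbp2 from 0.995 to 9.68, and Kit, the receptor that melanocytes need, fell from 92.1 to 24.4 CPM.

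Immediate early genes, which cells switch on within minutes of a stimulus, moved as a group. Of 20 tested 15 rose and none fell, where 6.49% of all genes rose, and 15 were also past 2-fold in other kept cells, with a median log2 ratio of 1.72 in members and 1.46 in other kept cells, and the summed level went from 2798 to 8363 CPM. Fosl1 rose 13.6-fold and Btg2 5.50-fold, while Myc and Fosl2 stood at 0.934- and 1.09-fold. Such genes also respond to tissue dissociation, whose part was not tested. Hspb1 and Dnajb1 rose among 15 heat shock genes, to 3.87- and 2.66-fold. B2m and H2-K1 rose with 2 others of 11 genes of class I antigen presentation, to 2.64- and 2.60-fold. In that list 9 of 11 rose in members of marker clusters, where 7.85% of all genes rose and 7.63% fell, and 8 of 11 without doublets, but none of 5 and none of 6 tested rose in the pairs of Con cluster 5 with TP cluster 9 and Con cluster 12 with TP cluster 13. Of 14 interferon genes 2 rose, Ifit1 and Ifit2.

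The lists that follow are read against the 6.49% of all genes that rose and the 8.85% that fell, and counts of 1 or 2 genes lie near those shares in most of them. Among 38 adhesion genes 6 rose and 1 fell. Cldn3 rose from 0.142 to 2.39 CPM, and Gja1, the connexin of dividing keratinocytes, fell from 866 to 429 CPM. Cdkn1a, the cell cycle inhibitor p21, rose 2.13-fold as the only 1 of 6 inhibitors. In the sugar metabolism list that holds Fbp1, Aldoc and Aldoa rose to 2.39- and 2.25-fold among 25. Of the thyroid hormone list, chosen because Crym binds that hormone, 1 of 9 rose (Klf9, 2.52-fold), and of the steroid response list 3 of 13 rose, Zbtb16 and Klf9 the most, at 2.96- and 2.52-fold. In the ganglioside list B3galt4 rose to 2.42-fold, in the semaphorin list Sema3a rose to 2.66-fold while Sema4c and Sema3e fell to 0.411- and 0.442-fold, and in the list of Cxcl12 receptors and TGF-β genes 1 of 10 rose, Cxcr4, from 0.462 to 1.97 CPM. In members of marker clusters the only riser of that list was Tgfbr3, not Cxcr4. Slc30a1 and Slc39a10, zinc transporters, fell to 0.448- and 0.470-fold among 6 metal-handling genes. None of 25 genes of the respiratory chain passed 2-fold, their ratios lying between 0.719 (Ndufs1) and 1.71 (Ndufa4). Of 8 genes of the companion layer and medulla 4 rose and none fell, led by Krt6b and Krt16, while Krt75 stood at 37.5 and 34.6 CPM. In other kept cells 6 of these 8 rose and 1 fell, with a median log2 ratio of 1.61 against 0.94 in members.

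Markers of other cell types were present in members and moved as well. Dermal papilla markers summed to 1700 CPM in Con and 1212 in TP members, with Fgf10 at 0.334-fold and Corin at 0.439-fold. Counts here are read against the 6.49% of all genes that rose and the 8.85% that fell. Fibroblast markers summed to 690 and 2118 CPM, with 6 of 8 genes higher, Lum by 10.8-fold and Col1a1 by 5.57-fold. Basal epidermal markers summed to 2124 and 3563 CPM, where Ly6d rose 3.73-fold. Melanocyte markers summed to 468 and 573 CPM, immune markers to 27.9 and 53.0, endothelial and mural markers to 43.6 and 181, Schwann cell markers to 127 and 77.1, and bulge markers to 331 and 435, where Cd34 rose 5.16-fold. Of the 8 immune markers 4 rose and 1 fell, with Lyz2, of macrophages, at 3.91-fold, Cd3e at 0.155-fold and Ptprc at 0.868-fold. Acta2, of smooth muscle, rose 6.02-fold. Cortex markers, which the selection limits, summed to 80.4 and 24.7 CPM. In other kept cells fibroblast markers summed to 1150 CPM in Con and 5959 in TP, with 7 of 8 higher. Immune markers summed to 69.5 and 226 CPM in those cells, with 6 of 8 higher and 1 lower. In members of marker clusters the papilla markers summed to 116 and 58.9 CPM and the immune markers to 13.3 and 17.7. Suprabasal markers there still went from 1761 to 26002 CPM, or from 1756 to 17596 without doublets, basal markers from 592 to 2241 and fibroblast markers from 190 to 436. The TP clusters were unlike in this. Members of TP cluster 16 held 43450 CPM of suprabasal markers, against 4374, 4366 and 3646 in TP clusters 9, 13 and 18. Their basal markers stood at 3185 CPM, against 806, 1064 and 1448. Melanocyte markers turned direction in members of marker clusters, with sums of 206 and 50.4 CPM. None of the immune or fibroblast markers was at 0 in the members of either library, while Sox10, Emcn and Cd34 were at 0 in Con members of marker clusters, and Cdh19 in those of TP. The part of merged cells and of free RNA in these values was not tested.

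To compare like with like, marker clusters of both libraries were paired by correlating, over 14303 genes, each cluster's log2 ratio to the rest of its own library. These genes share depth and background within a library. Of the Con marker clusters, TP cluster 9 was most like Con cluster 5 (r = 0.852), and TP cluster 13 most like Con cluster 12 (r = 0.817). Among Con marker clusters, TP clusters 16 and 18 were most like Con clusters 5 and 12, at 0.708 and 0.795, and were left unpaired, the first for its doublets and the second because Con cluster 12 was closer to TP cluster 13. Con cluster 13 was also closest to TP cluster 9 (r = 0.808) and was left unpaired. Among all Con clusters, TP cluster 13 was closest to Con cluster 3 (0.820), with which it was not compared, and stood at 0.796 with Con cluster 19. TP cluster 9 stood at 0.793 with Con cluster 4, and TP clusters 16 and 18 were closest to Con clusters 9 (0.757) and 0 (0.851). The pairs and the genes named from them were chosen after their values had been seen, and the pairing itself used all these genes, which favours small differences. Doublets made up 0.507% and 0.252% of members in the first pair and 0.163% and 1.33% in the second.

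In the pair led by Krt72, far fewer genes differed than in all members. Of 8633 genes tested 177 reached a 2-fold rise (2.05%) and 188 a 2-fold fall (2.18%), around a median log2 ratio of -0.08. Of these, 91 of the rises and 60 of the falls were also past 2-fold in other kept cells. Krt72 stood at 68.8 and 80.7 CPM (1.17-fold, 0.940 to 1.46), and the interval holds 1. Krt73 was 1.12-fold, Cdh6 0.762-fold, Sema6a 1.15-fold and Crym 1.30-fold, while Prr9 rose 2.13-fold, Fbp1 was 1.94-fold and St8sia1 0.544-fold. Krt25, Krt27, Krt28 and Krt71 lay between 0.818- and 1.22-fold. In both pairs these keratins, whose sum the selection caps, and the rule genes are set in part by the choice of cells. St8sia6 (0.988-fold), Gata3 (1.12-fold), Dlx3 (1.21-fold), Lef1 (1.02-fold) and Notch1 (0.952-fold) were close to Con. In other kept cells St8sia6, Lef1 and Notch1 all had log2 ratios below -1.3.

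Genes of the Tchh-high cells depend on where those cells were placed. Tchh was at 1100 CPM in Con cluster 5 and 2492 in TP cluster 9 (2.27-fold, 2.16 to 2.37), but Con had its Tchh-high cells in cluster 13. With Con clusters 5 and 13 joined, Con members held 4587 CPM and the ratio turned to 0.543 (0.526 to 0.561). Nrg3, a ligand of ErbB receptors and a leading gene of Con cluster 13, was at 16.7 and 99.9 CPM (5.99-fold, 4.34 to 8.41) in the pair and at 1.04-fold (0.873 to 1.24) with the clusters joined, where Krt72 was 1.98-fold (1.59 to 2.46) and Prr9 3.35-fold. The joined comparison had 2.06% of 9479 genes higher and 3.43% lower. Against the 133 members of Con cluster 4, where 5.43% of 6448 genes were higher and 3.92% lower, TP cluster 9 had Tchh at 1.52-fold (1.39 to 1.66), Nrg3 at 0.353-fold (0.274 to 0.457), Sox5 at 0.793-fold (0.720 to 0.875), Cdh6 at 4.01-fold and Krt72 at 80.7 against 2.95 CPM. In the pair Trps1, a repressor mutated in a syndrome with sparse hair, rose 2.30-fold and Sox5 2.47-fold, against 1.32- and 1.82-fold with the clusters joined, and Gli3, a hedgehog effector, rose 3.05-fold (2.54 to 3.66), against 2.496-fold (2.15 to 2.89) joined, while Gli2 and Gli1 fell to 0.427- and 0.312-fold. Runx1 stood at 0.501-fold and Dlx1 fell to 0.364-fold. Krt35 fell from 195 to 57.6 CPM (0.296-fold), Selenbp1 to 0.129-fold and Dsg4 to 0.137-fold. Stox1, a leading gene of Con cluster 5, fell from 30.6 to 6.59 CPM. Of 24 G2/M genes tested 18 fell, where TP cells of the cycling cluster 18 were not in the pair. No G2/M gene passed 2-fold over marker clusters without doublets, a set that holds TP cluster 18 but not Con cluster 0. Of 18 immediate early genes 13 rose, with a median of 1.67 against 1.46 in other cells. Fosb rose 11.96-fold, Atf3 10.6-fold, Fos 6.72-fold and Egr1 5.28-fold. Melanocyte markers fell in 4 of 5 genes, Pmel to 0.124-fold and Dct to 0.236-fold, and suprabasal markers rose in 6 of 7, with a median of 1.16 against 1.76 in other cells.

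In the cuticle-like pair 265 of 9105 genes reached a 2-fold rise (2.91%) and 553 a 2-fold fall (6.07%), with a median log2 ratio of -0.10. Of these, 125 of the rises and 180 of the falls were also past 2-fold in other kept cells. Hair cuticle genes rose in 4 of 8 and fell in none, but different clusters held these genes in the 2 libraries, since Krt82, Vsig8 and S100a3 were leading genes of cluster 19 in Con. S100a3 rose from 861 to 3803 CPM (4.42-fold, 4.23 to 4.61), Krt32 from 10.9 to 73.8 CPM (6.75-fold, 4.64 to 10.1) and Krt82 from 9.67 to 38.4 CPM (3.97-fold, 2.58 to 6.24). Krt35 was 1.69-fold, Hoxc13 1.88-fold and Dsg4 1.38-fold. Vsig8, a membrane protein of the hair cuticle, rose 4.79-fold, Calhm4 5.31-fold, Sox21, a factor needed for the hair shaft cuticle, 2.63-fold and Msx1 2.39-fold. With members of Con clusters 12 and 19 joined, where 2.69% of 9226 genes were higher and 5.94% lower, S100a3 was 3.71-fold (3.57 to 3.86), Krt32 5.67-fold, Krt82 3.08-fold (2.10 to 4.58), Vsig8 3.87-fold and Sox21 2.23-fold, and again 4 of 8 hair cuticle genes rose. Against the 96 members of Con cluster 19 alone, where 5.39% of 6720 genes were higher and 3.26% lower, 2 of 8 rose and 1 fell, with S100a3 at 1.45-fold (1.35 to 1.56), Vsig8 at 1.35-fold (1.02 to 1.83), Krt82 at 0.973-fold (0.536 to 1.91) and Sox21 at 0.905-fold (0.777 to 1.06). In the pair with Con cluster 12, Krt72 rose 2.52-fold (1.77 to 3.61), Cryba4 2.38-fold and Padi3 2.13-fold. None of S100a3, Krt32, Krt82, Vsig8 and Sox21 had a log2 ratio above 0 in other cells.

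Other genes of that pair went down with the cell cycle. G2/M genes fell in 30 of 32 and S phase genes in 17 of 26, and Mki67 went from 458 to 96.5 CPM. Against Con cluster 19 alone 1 of 9 G2/M and 1 of 8 S phase genes fell, with Mki67 at 0.558-fold (0.413 to 0.764), Tchh at 0.710-fold and Cdh6 at 0.872-fold. TP cells of the cycling cluster 18 were not in this pair, nor were the 715 members of Con cluster 0, which was led by cell cycle genes such as E2f7 and Kif14 and was the Con cluster most like TP cluster 18. The part of these splits in the falls was not tested. Relative to Con cluster 12, Tchh fell to 0.324-fold, Cdh6 to 0.384-fold, Lypd6 to 0.170-fold and St8sia1 to 0.116-fold. Runx2 fell to 0.0942-fold, Kit to 0.102-fold, Eya1 to 0.0330-fold and Lgr4, an R-spondin receptor, to 0.336-fold. Notch1 (1.07-fold), Jag1 (1.20-fold) and Bmpr1a (1.19-fold) stayed near Con. Fibroblast markers rose in 6 of 6 tested, from a sum of 180 to 1380 CPM, Col1a2 by 17.6-fold and Sparc by 11.4-fold, with a median of 3.52 against 2.20 in other cells. Immediate early genes rose in 13 of 18, with Fos at 7.34-fold and Egr1 at 5.54-fold.

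**Figure D5:**
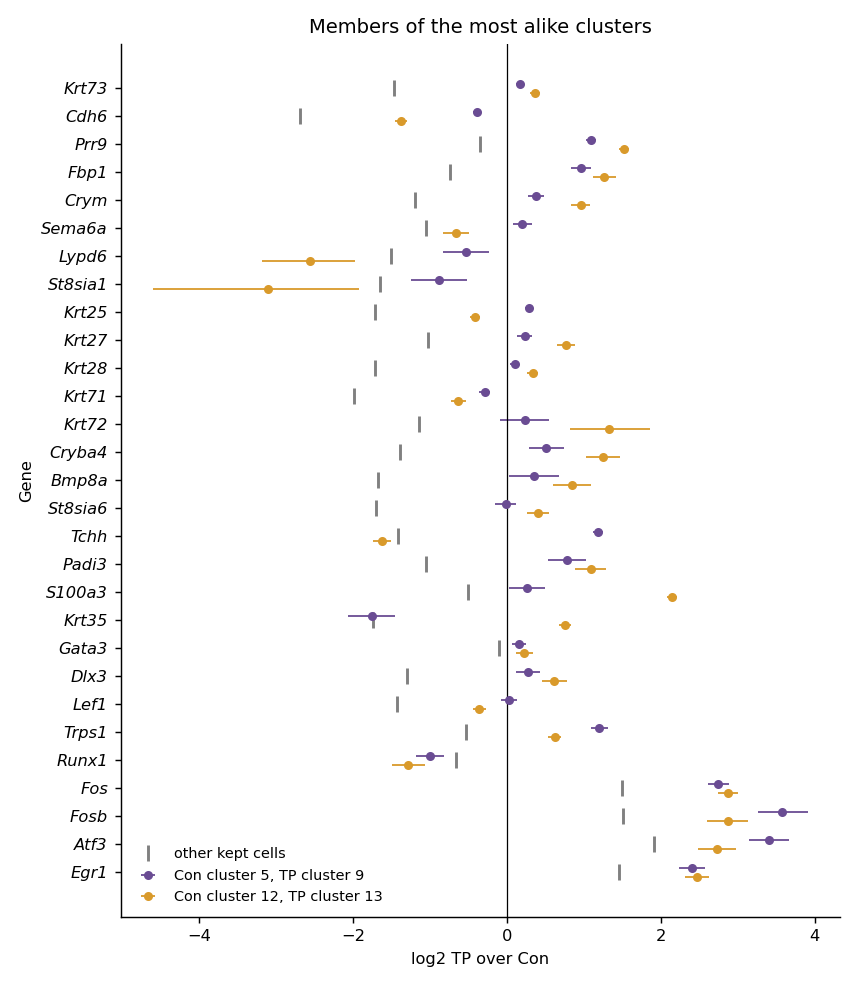
Log2 ratio of TP over Con with exact 95% intervals for counting error, in members of Con cluster 5 and TP cluster 9 (purple) and of Con cluster 12 and TP cluster 13 (orange), with the ratio in other kept cells as grey ticks. Rule genes and Krt25, Krt27, Krt28 and Krt71, which the selection limits, are set in part by the choice of cells. Dlx3 and Lef1 lie nearer to 0 in both pairs than in other cells, and Runx1 lies farther from 0. Tchh is above 0 in the first pair (below it once Con cluster 13 is joined) and below in the second. Fos, Fosb, Atf3 and Egr1 are above 2 in both.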

How the data were processed

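Dorsal skin cells of 2 groups, Con and TP, were analysed as 1 droplet library each, and values were compared without a test. The authors demultiplexed and aligned the reads to mm10 with Cell Ranger 8.0.1, which collapsed copies of a molecule and called cells. What the authors deposited are raw UMI counts, a whole number for each of 32285 features in every barcode, not normalized. The authors' later limits and doublet removal were not in these files.

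Barcodes with 200 to 8000 genes and at most 10% mitochondrial UMIs were kept. The members and gene lists were chosen with earlier results of these data known. UMIs were summed over members and divided by their total (CPM), with a pseudocount of 1 UMI before log2 for calls of 2-fold in genes with at least 50 UMIs. Printed folds are ratios of CPM without the pseudocount. Kept cells held 126023483 UMIs in Con and 156376139 in TP, members 28145850 and 21805492. Intervals are Poisson, Clopper-Pearson and conditional binomial.

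Each library was clustered without rule genes (2000 variable genes, 30 components, 20 neighbours, Leiden at resolution 1, leidenalg 0.10.2). DoubletFinder was rewritten (25% artificial doublets, nearest 1%, highest 7.5% called). Artificial doublets were means of 2 cells rounded to whole UMIs, so a gene with 1 UMI over both cells was lost. The effect of this rounding on the calls was not tested. Doublets were kept in the main values and removed as an alternative. Genes named were all rule genes, list genes, the 15 highest over other cells (200 UMIs in each library), the 12 largest rises and falls (100 UMIs) and, from each further list, the 2 largest rises and falls where they passed 2-fold, with some given that did not. Other genes were chosen after their values were seen. Gene models without a symbol were left out of the ranked sets. Gene positions are from RefSeq GRCm38.p6, matched by symbol. Alternatives changed depth, thresholds, scaling (edgeR 4.0.16 gave TMM factors only), weights and doublets. Scripts in Python 3.11.15, numpy 2.4.6, scipy 1.17.1 and pandas 2.3.3 were tested on simulated counts. Some genes that the rule for named genes selects are not reported here.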

Additional observations from a re-analysis of the deposited data

Results flagged for a closer look

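Barcodes above the mitochondrial limit of 10%, which were used only where the share was recomputed with a limit of 20%, held cells that met the rest of the selection, although no control level exists for them. In Con 336 of 3465 such barcodes did (9.70%, 8.73 to 10.7), and in TP 214 of 5844 with 200 to 8000 genes did (3.66%, 3.20 to 4.18). Their Krt72 stood at 24.0 CPM in Con and 52.0 in TP and their Krt73 at 851 and 1016 CPM, and their median depths were 1748 and 2186 UMIs.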

How the results depend on the processing

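No paired analysis was possible because each group has 1 library. The share ratio of members, 0.488, was 0.3458 with cells thinned to 1000 UMIs, 0.3299 at 2000 UMIs, 0.5235 with 2 of 8 genes required, 0.6498 with 4 of 8, 0.4289 without doublets, 0.7823 for members in marker clusters and 0.9801 of cells with any follicle gene set. It passed to the other side of 1 as a share of gated cells (1.003) and for members with 5 or more genes (1.016). Keratin limits of 100 and 300, a mitochondrial limit of 20% and the removal of shared barcodes kept it between 0.4688 and 0.4911. The count of genes at least 2-fold higher, 930, was 571 in members of 2000 to 10000 UMIs, 536 in thinned members and 612 with 5 or more genes. Larger counts included 1372 with TMM, 1354 with median-of-ratios factors, 1142 with at least 20 UMIs and 1069 with cells weighted equally. The count at least 2-fold lower, 1268, was 625 with TMM, 632 with median-of-ratios factors, 757 with at least 200 UMIs, 739 with cells weighted equally, 382 at 2000 to 10000 UMIs, 486 thinned, and 495 in marker clusters without doublets. Fewer genes were tested under the depth, UMI and member settings, and other causes were not tested. In the Krt72-led pair, adding Con cluster 13 turned Tchh to 0.543-fold and moved the count of lower genes from 188 to 325. Con cluster 4 in place of 5 turned Nrg3 to 0.353-fold and Sox5 to 0.793-fold. In the cuticle-like pair, Con cluster 19 in place of 12 turned Krt82 to 0.973-fold, Calhm4 to 0.853-fold and Sox21 to 0.905-fold, whereas joining 12 and 19 turned none of the 10 genes compared. Settings on marker clusters, on 5 or more genes and on these other clusters were chosen after seeing the data. Depth limits the comparison, since 44.8% of Con cells held fewer than 2000 UMIs, and 1 library per group leaves the spread between animals unknown.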
